A study of Homo sapiens with 6 samples.

Results

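The 10 genes DUSP4, DUSP5, DUSP6, SPRY2, SPRY4, SPRED1, SPRED2, ETV4, ETV5 and EGR1 are transcripts that rise when the kinase ERK is active, and most of their products act back on the same pathway. They were chosen by name from the gene symbols of the deposited table, which holds 81496 symbols over 135750 transcript probe sets. Each of the 10 symbols has 1 probe set. They were compared between MCF10.AT1, a preneoplastic human breast epithelial line of the MCF10A series, and MCF10.AT1-R, its derivative selected under fluvastatin in doses stepped from 1 through 5 to 20 µM. The parental arrays come from fluvastatin sensitive cells, for which no fluvastatin dose is listed, and the MCF10.AT1-R arrays from the fluvastatin resistant derivative. Both lines are grown in medium with EGF, insulin, hydrocortisone and horse serum, and both descend from MCF10A cells transformed with an activated HRAS. Whether fluvastatin was in the medium at harvest, and whether MCF10.AT1-R is a single clone, is not given in the sources used here.

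In the RAS to ERK cascade a receptor such as EGFR loads RAS with GTP, RAS recruits RAF, and RAF, MEK and ERK then phosphorylate one another in turn. RAS is held at the membrane by a farnesyl group made from mevalonate, the product of the enzyme that statins inhibit. Active ERK switches on its own brakes. The phosphatases DUSP4, DUSP5 and DUSP6 dephosphorylate ERK, and the Sprouty (SPRY) and SPRED proteins interfere with activation of RAS and RAF upstream. ETV4 and ETV5 are transcription factors of the PEA3 group of ETS proteins, and EGR1 is an immediate early zinc finger factor. These transcripts are widely used as a readout of ERK signalling, and the question asked of them here is whether that readout differs between the sensitive and the resistant line.

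RefSeq promoter sequences (GRCh38.p14, 250 bases before and 50 after each gene's start) were matched for 6 of the 10 genes, SPRED2, EGR1, SPRY4, DUSP6, SPRY2 and SPRED1. The stretches below are shown because they hold letters known from ERK-dependent control, the CArG box bound by SRF and the octamer bound by the repressor CIC, in capitals. EGR1 holds 2 CArG boxes, the first beginning 105 and the second 83 bases before the start (chr5:138465354-138465425, plus strand). DUSP6 holds a CIC octamer, read as TCAATGGA on the opposite strand, that begins 24 bases before the start (chr12:89352502-89352545, minus strand).
EGR1: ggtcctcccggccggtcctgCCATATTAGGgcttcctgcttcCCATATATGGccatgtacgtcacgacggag
DUSP6: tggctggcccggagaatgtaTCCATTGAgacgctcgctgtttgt
On both strands, a CArG box was found in 1.29% of 35116 promoters of this length and a CIC octamer (TGAATGAA, TGAATGGA, TCAATGAA or TCAATGGA) in 3.77%. The octamer occurs a second time in the DUSP6 window, just after the start. The AP-1 letters TGANTCA, found in 7.71% of promoters, were in 1 promoter of SPRED2. The CRE letters TGACGTCA (1.85%) and the ETS letters CCGGAAGT (4.14%) were in none of the 9 promoters of these 6 genes. These are matches of letters within a short window, and the arrays do not measure binding.

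Total RNA was profiled on Clariom D arrays, 3 for each line, and the deposited values are log2 expression values made by the RMA method. MCF10.AT1 was hybridized on A01, A02 and A03, and MCF10.AT1-R on B02, B03 and B04. A03, which the study removed as an outlier, correlated with the other arrays at 0.779 to 0.795 against 0.967 to 0.977 among the rest, and its hybridization controls averaged 5.99 against 10.35 to 11.33. It is given apart here. The lines were therefore compared on 2 against 3 arrays, and this number limits the precision of every value. The sample titles of a line are numbered as replicates, and the paper calls these replicates biological.

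No gene among the 10 passed an FDR of 5% in limma, but they did not all move one way. For 6 of them, DUSP6, SPRY2, SPRED1, SPRED2, ETV5 and EGR1, all MCF10.AT1-R arrays lay below both MCF10.AT1 arrays. For the phosphatases DUSP4 and DUSP5 all MCF10.AT1-R arrays lay above, and for SPRY4 and ETV4 the arrays overlapped. Arrays that did not overlap were found for 24.7% of all symbols, 12.8% with MCF10.AT1-R above and 11.9% with it below. Among the 17527 symbols whose mean was at or above that of the lowest of the 10 genes, a limit set after the values were seen, these shares were 36.5%, 19.5% and 17%. The median difference of the 10 genes, MCF10.AT1-R minus MCF10.AT1, was -0.27 on the log2 scale, against 0.00 over all symbols. In these bulk cultures, fewer cells that express a gene and less of its RNA per cell cannot be told apart.

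**Figure D1:**
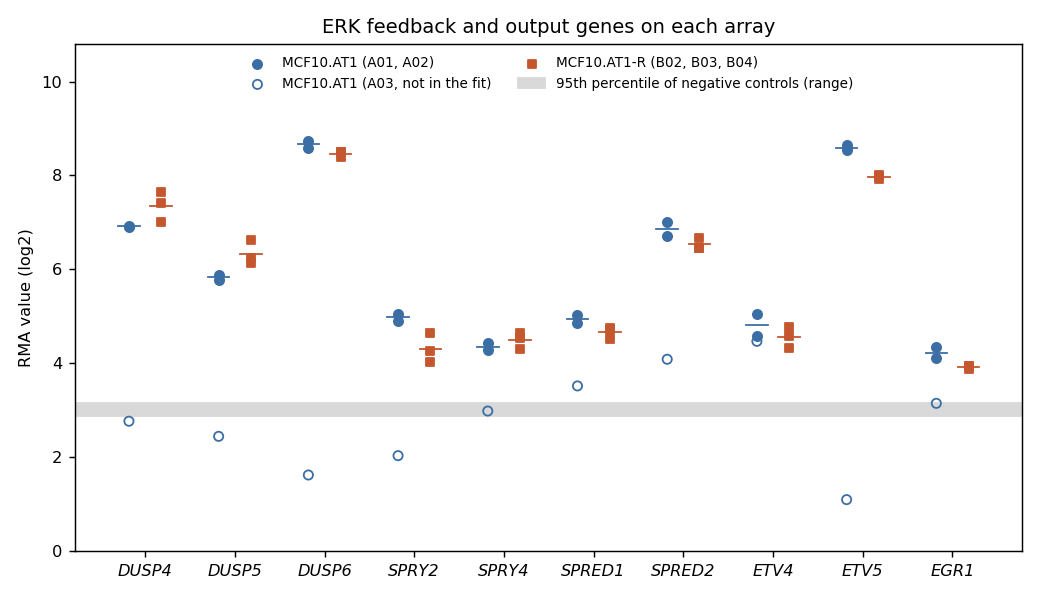
RMA values (log2) of the 10 genes on each array, with MCF10.AT1 as circles, MCF10.AT1-R as squares, short lines for the means of 2 and 3 arrays, open circles for A03, and a grey band for the 95th percentile of the negative controls, as a range over the arrays. ETV5 shows the widest gap between the lines (0.54), and A03 lies below the other 5 arrays for 9 of the 10 genes.

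Of the 10 genes, 8 passed the filter on low and invariant probe sets, and DUSP6 and SPRY4 were removed as invariant. Among the 51457 probe sets tested 1.2% passed the threshold, 0.758% higher and 0.447% lower in MCF10.AT1-R, and 0 of these 8 did. At an unadjusted p under 0.05 in limma there were 2 of 8, SPRY2 and ETV5, against 8.26% of the probe sets tested. In limma without a filter there were 3 of 10, DUSP5, SPRY2 and ETV5, against 7.52% of all symbols. After the filter limma used a common SD of 0.34 for every probe set, and the residual SD of each of the 10 genes was below it, from 0.051 for ETV5 to 0.27 for ETV4. When the variance was allowed to follow the expression level, 1 of the 8, ETV5, passed, lower in MCF10.AT1-R, against 2.68% of the probe sets tested, 0.981% lower. With the low-expression filter alone, 0 of the 10 passed, against 0.268%.

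The phosphatases split. DUSP4, a nuclear phosphatase, read 6.92 and 6.91 in MCF10.AT1 and 7.41, 7.01 and 7.64 in MCF10.AT1-R. All 3 resistant arrays were higher, although B03 exceeded the parental arrays by only 0.081. The difference was 0.44 (standard error 0.31, 95% interval -0.17 to 1.05, adjusted p = 0.790 from limma). DUSP5, a nuclear phosphatase that also retains ERK in the nucleus, read 5.89 and 5.76 in MCF10.AT1 and 6.12, 6.23 and 6.63 in MCF10.AT1-R. Its arrays were separated by 0.24 and its means by 0.50, a 1.42-fold higher value in MCF10.AT1-R (adjusted p = 0.736 from limma).

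DUSP6, the cytoplasmic ERK phosphatase whose promoter stretch is shown above, read 8.59 and 8.73 in MCF10.AT1 and 8.50, 8.39 and 8.50 in MCF10.AT1-R. The resistant arrays were lower by a small and even margin, with means of 8.66 ± 0.10 (SD, n = 2) and 8.46 ± 0.064 (SD, n = 3). In limma without a filter its difference was -0.20, with a 95% interval of -0.62 to 0.22. In that same fit the interval of DUSP4 was -0.084 to 0.96 and that of DUSP5 was 0.011 to 1.00.

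The adaptors lay mostly lower in MCF10.AT1-R. SPRY2, which restrains receptor signalling to RAS, read 5.06 and 4.91 in MCF10.AT1 and 4.27, 4.64 and 4.02 in MCF10.AT1-R. It had the most negative difference of the 10 genes, -0.67 (standard error 0.31, 95% interval -1.28 to -0.060), or 1.59-fold higher in MCF10.AT1. The SD among the 3 resistant arrays was itself 0.31, and the adjusted p was 0.506 from limma. SPRY4, its relative, read 4.42 and 4.28 in MCF10.AT1 and 4.55, 4.65 and 4.30 in MCF10.AT1-R, with B04 between the parental arrays. Its difference of 0.14 had a 95% interval of -0.31 to 0.60 in limma without a filter.

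SPRED1, which brings the RAS inhibitor neurofibromin to the membrane, read 5.03 and 4.86 in MCF10.AT1 and 4.52, 4.74 and 4.71 in MCF10.AT1-R. SPRED2, which acts like it, read 7.00 and 6.70 in MCF10.AT1 and 6.67, 6.46 and 6.46 in MCF10.AT1-R. The lines were apart by 0.12 for SPRED1 and by 0.028 for SPRED2, where A02 and B02 nearly met. Their differences were -0.29 and -0.32, with adjusted p of 0.839 and 0.835 from limma.

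ETV5, which drives proliferation programmes downstream of growth factor receptors, had the widest gap between the lines of the 10 genes. It read 8.55 and 8.64 in MCF10.AT1 and 7.93, 8.01 and 7.99 in MCF10.AT1-R. All resistant arrays lay below both parental arrays by at least 0.54, and the means were 8.59 ± 0.069 (SD, n = 2) and 7.97 ± 0.039 (SD, n = 3). The difference was -0.62 (standard error 0.31, 95% interval -1.23 to -0.0090), 1.54-fold higher in MCF10.AT1. With the common SD it did not pass (adjusted p = 0.589 from limma), and with a variance that follows the level it did (adjusted p = 0.000192 from limma, or 0.00336 with the low-expression filter alone). The call on ETV5 thus depends on how the variance was modelled.

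ETV4, the close relative of ETV5, read 4.57 and 5.06 in MCF10.AT1 and 4.78, 4.32 and 4.57 in MCF10.AT1-R. Its arrays overlapped and the parental pair differed from each other by more than the lines did. The difference was -0.26, with a 95% interval of -0.87 to 0.35. EGR1, the immediate early gene with the CArG boxes shown above, read 4.10 and 4.35 in MCF10.AT1 and 3.93, 3.88 and 3.94 in MCF10.AT1-R. The resistant arrays were close together, at 3.92 ± 0.033 (SD, n = 3), and below both parental arrays by 0.16. The difference was -0.30 (adjusted p = 0.839 from limma).

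**Figure D2:**
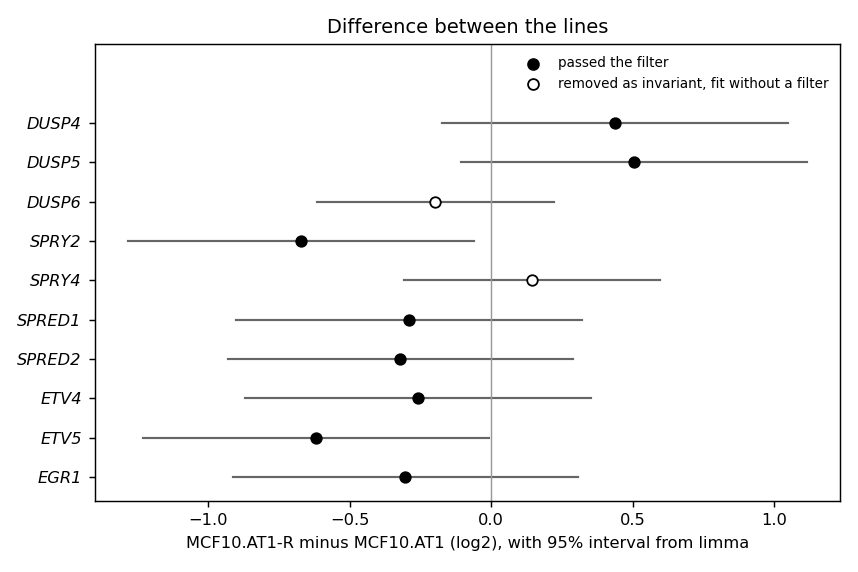
Difference between the lines for each of the 10 genes, MCF10.AT1-R minus MCF10.AT1 on the log2 scale, with the 95% interval from limma over 2 and 3 arrays, from the filtered fit for 8 genes and from the fit without a filter for DUSP6 and SPRY4 (open points). As drawn, the intervals of SPRY2 and ETV5 end at -0.060 and -0.0090 before adjustment and those of the other 8 genes include 0, while without a filter that of DUSP5 begins at 0.011.

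On A03, the array left out, the 10 genes read between 1.09 and 4.47, and 7 of them lay under the 95th percentile of that array's negative controls. ETV5 read 1.09 and DUSP6 1.62 there, against 8.39 or more for DUSP6 and 7.93 or more for ETV5 on the other arrays. When A03 was put back among the parental arrays, the lines overlapped for 8 of the 10 genes, and only DUSP4 and DUSP5 kept every MCF10.AT1-R array above every MCF10.AT1 array. The fitted differences of DUSP6, SPRY2, SPRED1, SPRED2, ETV5 and EGR1 then changed sign, to between 0.057 and 2.15. On all 5 other arrays each of the 10 genes lay above the 95th percentile of the negative controls, which ran from 2.88 to 3.14.

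**Figure D3:**
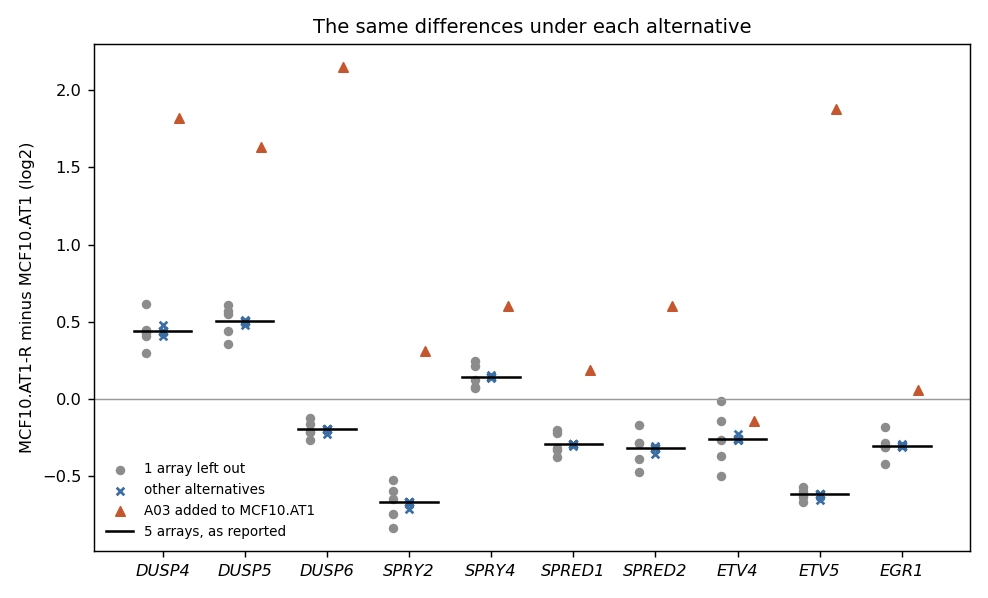
Difference of each gene (MCF10.AT1-R minus MCF10.AT1, log2) as reported from 5 arrays (line), with 1 array left out (grey circles), with A03 added (triangles) and under the other alternatives (crosses). Without A03 each gene keeps its sign, from -0.84 to -0.53 for SPRY2 and from -0.67 to -0.57 for ETV5 when 1 array is left out, and ETV4 comes closest to 0 at -0.014.

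The rest of the pathway was described with 8 lists of 75 measured genes, and 5 of these passed the threshold, 4 higher and 1 lower in MCF10.AT1-R. Of all symbols tested 1.52% passed, and 3.1% of those at or above the level of the lowest of the 10 genes. Among the other MAPK phosphatases 2 of 8 rose, 0 fell, 5 did not pass and 1 was removed by the filter, with a median difference of 0.19. Resistant arrays all lay above for 4 of the 8 and all below for 2, against 19.5% and 17% of symbols at or above that level. DUSP1, named after its value was seen, was among those below, with a difference of -0.66 (adjusted p = 0.522 from limma). DUSP14 read 5.84 and 5.71 in MCF10.AT1 and 6.88, 6.81 and 7.03 in MCF10.AT1-R, a difference of 1.13 (standard error 0.31, adjusted p = 0.0291 from limma). DUSP10, which acts mainly on the stress kinases p38 and JNK, read 2.94 and 2.87 in MCF10.AT1, within the negative controls, and 4.16, 3.56 and 4.34 in MCF10.AT1-R. It was at least 1.91-fold higher in MCF10.AT1-R, taking the 95th percentile of the negative controls as the parental level. Its difference without this bound, 1.12, had an adjusted p of 0.0325 from limma. With values raised to a floor at the negative controls the difference was 1.03 and did not pass (adjusted p = 0.225 from limma). Neither passed without A01 (adjusted p from limma 0.265 for DUSP14 and 0.316 for DUSP10), A02 (0.494 and 0.463), B02 (0.0722 and 0.138) or B04 (0.125 and 0.225). Nor did they with the low-expression filter alone (0.0870 and 0.260) or without a filter (0.120 and 0.344). When the variance followed the level both passed (adjusted p from limma 2.38e-06 for DUSP14 and 0.0229 for DUSP10). With that variance and the low-expression filter alone DUSP14 passed (0.000708) and DUSP10 did not (0.0683).

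Among these 75 genes the largest difference was in ETV1, the third PEA3 factor beside ETV4 and ETV5. It read 6.80 and 6.59 in MCF10.AT1 and 4.79, 4.03 and 3.80 in MCF10.AT1-R, and every resistant array was far below both parental arrays. ETV1 fell by 2.49 on the log2 scale, 5.61-fold (standard error 0.31, adjusted p = 1.41e-12 from limma). ETV1 also passed with the low-expression filter alone, less strongly (adjusted p = 0.0322 from limma), and without a filter (0.0243). The call remained when any of the 5 arrays was left out, with adjusted p of at most 4.47e-06 from limma, and was lost when values under the negative controls were raised to a floor (adjusted p = 0.0728 from limma), although its own values were not changed by the floor. All 3 PEA3 genes had lower means in MCF10.AT1-R, and of their differences of -2.49, -0.62 and -0.26 that of ETV1 alone passed. The other ETS genes of the list, ELK1, ELK3 and ELK4, did not pass, and ELK4, removed as invariant, differed by 0.18 with all resistant arrays above.

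The Sprouty and SPRED genes outside the 10 gave little signal. SPRY3 and SPRED3 lay within the negative controls in both lines, so no fold is given. SPRY1 read 2.80 and 3.76 in MCF10.AT1 and 2.41, 2.35 and 2.97 in MCF10.AT1-R, with overlapping arrays. None of the 3 passed.

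Of 10 immediate early genes outside the 10, 1 rose, 0 fell, 7 did not pass and 2 were removed by the filter. The median difference was -0.11. ATF3, a stress-induced factor, read 2.33 and 2.75 in MCF10.AT1, within the negative controls, and 3.99, 3.64 and 3.97 in MCF10.AT1-R. It was at least 1.72-fold higher in MCF10.AT1-R, taking the 95th percentile of the negative controls as the parental level. Its difference without this bound, 1.33, had an adjusted p of 0.00338 from limma. ATF3 did not pass with the low-expression filter alone (adjusted p = 0.0966 from limma) or without a filter (0.118). Nor did it pass with values raised to a floor at the negative controls. Without A01, which leaves A02 as the only parental array, the difference was 1.12. EGR2 and EGR3, the relatives of EGR1, did not exceed the negative controls in either line, and IER2 differed by -0.31 with all resistant arrays below (adjusted p = 0.838 from limma).

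Among other transcripts known to follow ERK activity most means were higher in MCF10.AT1-R. Of 12, 11 had a higher mean in MCF10.AT1-R, and the median difference was 0.37, with 9 genes whose resistant arrays all lay above and 0 below. Of all 81496 symbols 41377 had a higher mean. This list, like the others, was chosen with earlier results of these data known. Resistant arrays all lay above for 12.8% of all symbols, and for 19.5% of those at or above the level of the lowest of the 10 genes. HBEGF, a ligand of EGFR, was the gene of this list that passed. It read 5.41 and 5.73 in MCF10.AT1 and 7.46, 7.19 and 7.39 in MCF10.AT1-R, and rose 3.42-fold (difference 1.77, standard error 0.31, adjusted p = 5.13e-06 from limma). HBEGF also passed with the low-expression filter alone, less strongly (adjusted p = 0.0216 from limma), and without a filter (0.0201). It passed with any 1 array left out, with adjusted p of at most 0.0183 from limma. MYC read 7.83 and 7.74 in MCF10.AT1 and 8.50, 8.63 and 8.72 in MCF10.AT1-R, a difference of 0.83 that did not pass with the common SD (adjusted p = 0.268 from limma). When the variance followed the level 4 of the 12 passed, HBEGF, MYC, CCND1 and PLAUR, all higher. In that fit 1240 of all 35766 symbols tested passed. CCND1 (0.65) and PLAUR (0.62) are named here after their values were seen.

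**Figure D4:**
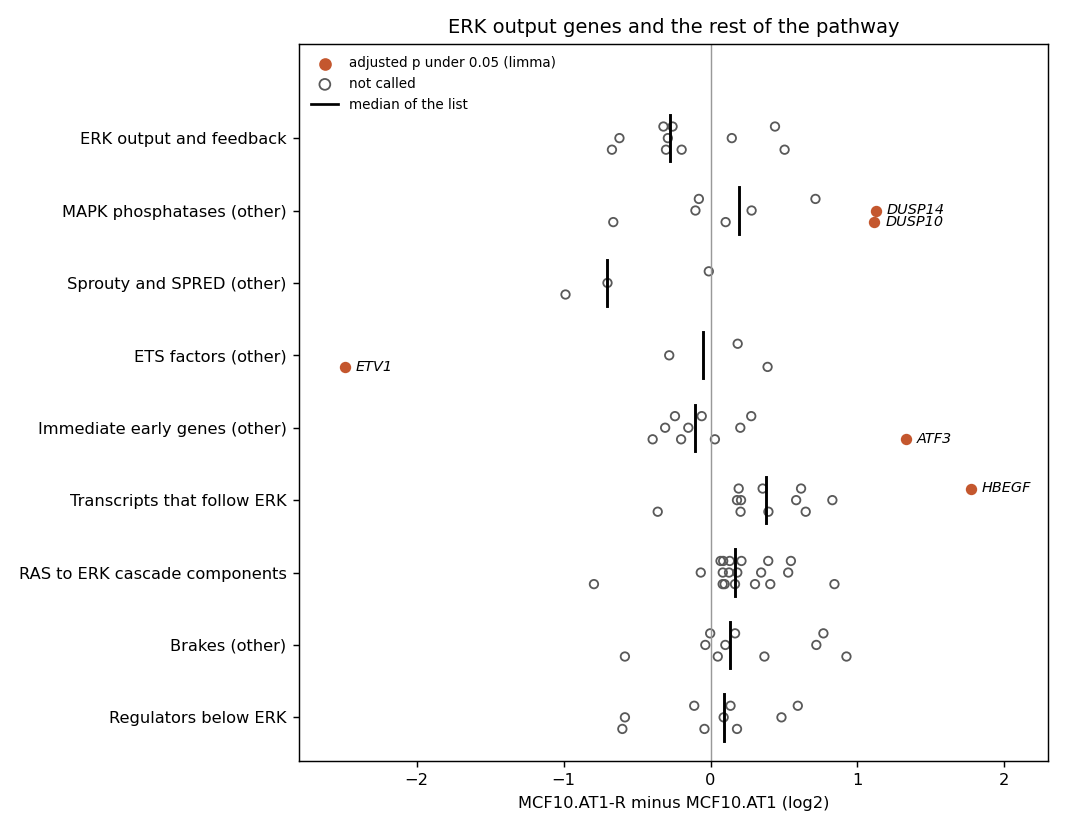
Difference between the lines (MCF10.AT1-R minus MCF10.AT1, log2) for each of the 10 genes and the 75 genes of the other lists, with filled points for adjusted p under 0.05 in limma and a bar at the median of each list. The 10 genes have a median of -0.27 and the transcripts that follow ERK one of 0.37, and the called genes are DUSP14, DUSP10, ETV1, ATF3 and HBEGF.

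The components of the cascade itself gave no call. Of 19 genes from EGFR to ERK 0 passed, 7 were removed as invariant, and the median difference was 0.17. A higher mean in MCF10.AT1-R was found for 17 of the 19, and for 41377 of all 81496 symbols. The arrays of the lines overlapped for 12 of the 19, and resistant arrays all lay above for 6 and all below for 1. Among symbols at or above the level of the lowest of the 10 genes, 19.5% lay above and 17% below in this way. EGFR was removed as invariant, at 6.48 and 6.49 in MCF10.AT1 and 6.55, 6.71 and 6.44 in MCF10.AT1-R. GAB1, an adaptor below receptors, read 6.26 and 5.66 in MCF10.AT1 and 7.05, 6.64 and 6.72 in MCF10.AT1-R, a difference of 0.84 (adjusted p = 0.247 from limma). HRAS read 8.70 and 8.66 in MCF10.AT1 and 7.77, 7.91 and 7.98 in MCF10.AT1-R, a difference of -0.79 (adjusted p = 0.316 from limma). The probe set does not tell the introduced HRAS from the cell's own gene. GAB1 and HRAS were the 2 genes of this list that passed when the variance followed the level, with adjusted p of 0.00172 and 2.31e-07 from limma. Of all 35766 symbols tested, 1240 passed in that fit.

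Of 10 further brakes of the cascade 0 passed and 3 were removed, with a median difference of 0.13. PEA15, which keeps ERK in the cytoplasm, read 7.74 and 7.86 in MCF10.AT1 and 8.73, 8.69 and 8.76 in MCF10.AT1-R, a difference of 0.93 (adjusted p = 0.149 from limma). RASAL2, a GTPase activating protein for RAS, differed by 0.77 with all resistant arrays above (adjusted p = 0.355 from limma). When the variance followed the level 3 of the 10 passed, against 1240 of all 35766 symbols tested. These were PEA15, RASAL2 and, lower by a difference of -0.58, the EGFR inhibitor ERRFI1, named after its value was seen. Of 9 kinases and transcription regulators below ERK 0 passed, and their median difference was 0.09. RPS6KA1 and RPS6KA2, kinases activated by ERK, differed by 0.59 and -0.60, with arrays that did not overlap in either. For RPS6KA1 the value is that of the brightest of 22 probe sets. When the variance followed the level 2 of the 9 passed, against 1240 of all 35766 symbols tested. These were RPS6KA1 (adjusted p = 0.000797 from limma) and MKNK2 (0.0125), while RPS6KA2 did not pass (0.470). MKNK2, lower in MCF10.AT1-R with a difference of -0.58, is named after its value was seen. The repressor CIC read 4.12 and 4.98 in MCF10.AT1 and 4.37, 4.54 and 5.01 in MCF10.AT1-R, with overlapping arrays.

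Markers of cell state moved with the line on the same arrays. Over all 35766 symbols tested, 360 passed as higher and 182 as lower in MCF10.AT1-R. Of 8 genes listed here as mammary basal epithelial markers (KRT5, KRT14, KRT17, TP63, EGFR, CDH1, ITGA6 and LAMB3), all 8 lay above the negative controls on all 5 arrays and 6 rose. CDH1, which is not particular to basal cells, was among these 6 (1.30). The summed log2 level of the 8 was 52.7 to 53.7 in MCF10.AT1 and 66.2 to 66.8 in MCF10.AT1-R. Of 6 luminal markers 2 rose, KRT8 and KRT19, and the sum went from between 36.0 and 36.2 to between 39.7 and 41.2. KRT19 had the largest difference of the 6 (2.91). In MCF10.AT1-R 4 of the 6 had a higher mean and 2 a lower, ESR1 (-0.43) and FOXA1 (-0.18), neither of which passed. Of 5 cornifying keratinocyte markers 2 rose, KRT1 and IVL, with sums of 14.3 to 14.8 and of 18.6 to 20.0, and FLG lay within the negative controls on all 5 arrays. KRT10 (0.58) did not pass, and LOR, removed by the filter, had a lower mean in MCF10.AT1-R (-0.14). Fibroblast markers summed to 30.2 to 30.7 and 27.6 to 28.7, with PDGFRB and LUM within the negative controls on all 5 arrays. Only DCN passed, lower in MCF10.AT1-R with a difference of -2.15. Of the 7 fibroblast markers 3 had a higher and 4 a lower mean in MCF10.AT1-R. Leukocyte sums overlapped, at 16.9 to 18.7 and 17.3 to 17.9, with CD14 lower and PTPRC within the negative controls. Endothelial sums were 13.4 to 13.8 and 11.6 to 12.7, with KDR within the negative controls. Of the 4 endothelial markers only PECAM1 passed, lower in MCF10.AT1-R with a difference of -1.12. The part of these differences in the values of the ERK output genes was not tested. The letter in the array names also goes with the line, so anything it stands for and the line cannot be told apart.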

How the data were processed

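The authors extracted total RNA with Trizol, hybridized it to Clariom D arrays and preprocessed the scans by RMA with the Bioconductor packages affy and oligo, and deposited the unfiltered log2 values of all 6 arrays. RMA corrects background, forces the same distribution on every array and summarises probes, so A03 was normalized together with the rest and overall shifts between lines are removed. The versions of affy and oligo and the genome build are not given in the sources used here. The array names were assigned to the lines from the study's own principal component plot, and they carry no replicate number.

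From these values, 135750 transcript probe sets on 5 arrays were filtered (mean above the median, 1.88, and SD above the lowest 25%, 0.18, limits set here) and tested with limma 3.58.1 (lmFit, then eBayes; R 4.3.3), two-sided, with Benjamini-Hochberg adjustment over the 51457 probe sets kept and a threshold of FDR 5%. A gene removed by the filter was read from the same fit without it. Where a symbol had several probe sets, the one with the highest mean was used. Bounds for genes within the negative controls (612 probe sets) used each array's 95th percentile of these controls. Named genes outside the 10 are those past the threshold and, in each list, the 2 largest differences among genes whose arrays did not overlap. Any other gene named was chosen after its values were seen. MRTFA was measured under its older symbol MKL1. On simulated data the filter on SD, with a common or a level-dependent variance, let through more false calls than the nominal FDR. The low-expression filter alone did not, so calls are also given under it. The simulation took the observed residual SD of each probe set as its true SD, while the filtered fit of the real data used a common SD. It therefore cannot say how many of the calls made here are false. The 10 genes and the lists were chosen with earlier results of these data known. Alternatives are given at the end. RNA sequencing, qPCR and mouse data were not analysed here.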

Additional observations from a re-analysis of the deposited data

How the results depend on the processing

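No paired analysis was possible because the array names carry no replicate numbers that the lines share. Array weights, centring each array on its median, quantile normalization over the 5 arrays and the mean over the probe sets of a symbol changed no call and no direction among the results compared, and leaving out B03 changed no call. The medians of some lists lay near 0 and changed sign: that of the ETS factors, -0.048, was 0.86 with A03 added, 0.0091 without A02 and 0.039 without B03, that of the regulators below ERK, 0.09, was -0.10 without B04, and that of the immediate early genes, -0.11, was 0.015 with the floor. Over all probe sets 620 passed, against 26 with A03 added, 177 without a filter, 182 with the low-expression filter alone, 1377 when the variance followed the level, 1086 when it did so with the low-expression filter alone (an alternative chosen after seeing the data), 272 with a floor at the negative controls, and 271 to 595 with 1 array left out. The count of the 10 genes that passed was 0 in each of these except 1, ETV5, when the variance followed the level under either filter. Their median difference was 0.60 with A03 added and -0.28 to -0.15 with 1 array left out.

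With A03 added, the differences of DUSP6 (2.15), SPRY2 (0.31), SPRED1 (0.19), SPRED2 (0.60), ETV5 (1.88) and EGR1 (0.057) reversed. With A03 added 0 MAPK phosphatases, 0 ETS factors, 0 immediate early genes and 0 transcripts that follow ERK passed. For the MAPK phosphatases the count of 2 became 0 without a filter and with the low-expression filter alone, 1 with the floor, and 0 to 2 with 1 array left out. For the immediate early genes the count of 1 became 0 without a filter, with the low-expression filter alone and with the floor, and was 0 to 1 with 1 array left out. The ETS count of 1 became 0 with the floor, and the brakes count of 0 became 1. When the variance followed the level, under either filter, counts were 4 for transcripts that follow ERK, 2 for the cascade, 3 for the brakes and 2 for the regulators below ERK. At FDR 10% 1 Sprouty or SPRED gene passed, SPRED3. The cause of these changes was not tested.

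With 2 and 3 arrays and a common SD of 0.34, the standard error of a difference was 0.31, so differences of the size seen in the 10 genes were not detectable as calls after adjustment. A p that misses the threshold does not show that the lines have equal levels.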
